A study of Rattus norvegicus with 16 samples.

Results

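The endothelin system of the rat thoracic aorta was examined through the genes of its ligands (Edn1 and Edn3), its receptors (Ednra and Ednrb) and its converting enzyme (Ece1). Every probe set was taken whose gene symbol in the platform annotation is 1 of these 5, which gave 5 of the 8799 probe sets on the array: 1 for Edn1, 2 for Edn3 and 2 for Ece1. They stand for 3 of the 4736 genes that have a probe set of their own. No probe set used here carries the symbol Ednra or Ednrb, so the receptors and the difference between them were not analysed here. The samples were single pieces, 1 cm long, of descending thoracic aorta from 16 rats, 4 each at 3, 6, 15 and 28 months of age, and each was hybridised to 1 Affymetrix array. The study compared the ages, with no treatment or genetic change given in the labels. The labels name no strain or sex, and they are silent on whether the outer fat was taken off the vessel.

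Endothelins are short peptides that contract or relax blood vessels. They are made as long precursors, trimmed by proprotein convertases to big endothelins and then cut to the active peptide by endothelin-converting enzyme, a membrane metalloprotease encoded by Ece1. In the aorta endothelin-1 comes mainly from the endothelium and contracts the smooth muscle through the A receptor, while B receptors on the endothelium release nitric oxide and prostacyclin.

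Because a list of the factors that act on Edn1 transcription is counted among the results, part of the Edn1 promoter is shown. It is the RefSeq sequence of the rat assembly GRCr8 at chr17:22666788-22666937, on the minus strand, from base -250 to base -101 relative to the RefSeq start of the gene. Capitals mark matches to 4 of 5 short motifs, which were searched on both strands of the 300 bases around each start.
Edn1 promoter: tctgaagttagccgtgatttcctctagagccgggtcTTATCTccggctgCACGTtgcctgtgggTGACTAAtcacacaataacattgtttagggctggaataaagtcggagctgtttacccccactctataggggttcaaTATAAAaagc
The GATA motif AGATAA matched once, on the minus strand, with its first base at -214, and 11.6% of all 33469 rat promoters in the table hold it. The core of the hypoxia element, ACGTG, matched once on the minus strand at -201 (19.3% of promoters). An AP-1 variant, TGACTAA, matched once on the plus strand at -186 (2.34% of promoters), and TATAAA once on the plus strand at -110 (14.2%). The AP-1 consensus TGANTCA had 0 matches in the window (7.33% of promoters hold it). None of the marked matches overlap each other, and a match is a description of the letters. The promoters of Edn3 and Ece1 are not shown.

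Values are MAS5 signals, on a linear scale, and tests used log2(signal + 16), on which the change of a dim probe set is understated. A probe set was tested when its mean log2 value reached 7.31, the 40th percentile over the array, which left 5250 probe sets. Both Ece1 probe sets passed and the other 3 did not, so the values given for Edn1 and Edn3 come from a fit of all 8740 probe sets that are not controls. Differences are given with their standard error (SE), and every adjusted p is limma's with Benjamini-Hochberg adjustment over all probe sets of the same fit, 2-sided. Signals of the 16 arrays had been brought to 1 scale before deposit, with medians between 223.5 and 267.7. Arrays of the same replicate number shared a hybridisation day, a station and a chip lot in the array records, and are called a run here. Each run held 1 array of each age.

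Markers of the vessel wall were read as mean log2 values over lists of genes. The 12 smooth muscle genes measured were all above the filter and averaged between 12.65 and 14.56 on the 16 arrays, and 8 of the 11 endothelial genes measured were above it, averaging between 8.67 and 9.57. A fat score over 25 genes of white and brown fat cells lay between 11.92 and 13.12 at 3 months, 11.82 and 13.41 at 6 months, 10.07 and 13.12 at 15 months, and 10.23 and 11.68 at 28 months. All 4 arrays at 28 months were thus below all 4 at 3 months in fat transcripts. On 2 arrays, replicate 4 at 15 and at 28 months, beta-actin gave 3.20 and 3.82 times as much signal at its 3' end as at its 5' end, against 1.24 to 1.77 times on the other 14. A high value of this beta-actin ratio is a sign of broken RNA.

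No age difference was called in any of the endothelin genes. Of the 5 member probe sets, 0 passed the threshold of 0.05 at 28 against 3 months, where 1.28% of the 5250 probe sets and 0.641% of the 8740 without the filter were called. The brighter Ece1 probe set had the smallest adjusted p of the members in this comparison (0.192). In whole tissue, fewer cells of a type and less RNA per cell cannot be told apart.

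**Figure D1:**
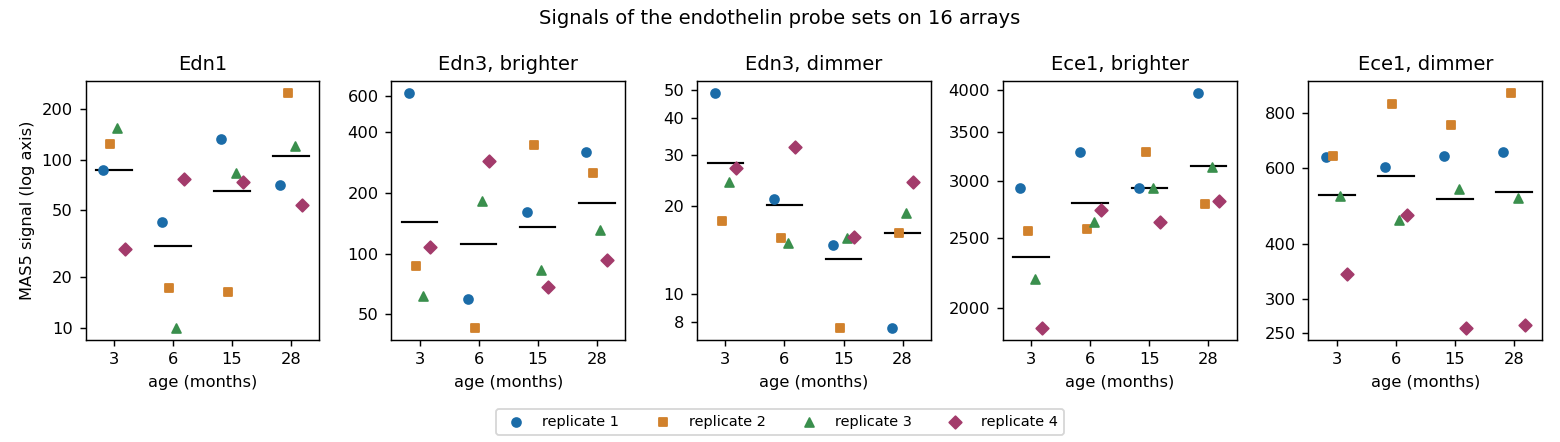
MAS5 signal of each endothelin probe set (log axis, a separate scale in each panel) against age in months, with 1 point per array, a marker for each replicate number and a line at the age mean of log2(signal + 16). The brighter Ece1 probe set has its lowest age mean at 3 months, while on the dimmer one replicate 2 is the highest array at each age.

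Edn1 encodes preproendothelin-1, the precursor of the vasoconstrictor peptide. Its signals at 3 months were 86.1, 123.3, 155.1 and 29.2 on replicates 1 to 4. At 6 months they were 42.5, 17.1, 9.93 and 76.5. At 15 months they were 132.6, 16.2, 82.8 and 73.9. The 28-month arrays gave 70.1, 249.6, 119.7 and 53.6. The lowest array of all was at 6 months and the highest at 28 months, and the ranges of the 4 ages overlapped.

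On the log2 scale Edn1 averaged 6.68 ± 0.84, 5.54 ± 0.83, 6.33 ± 0.94 and 6.92 ± 0.85 (SD, n = 4 each) at 3, 6, 15 and 28 months. At 28 against 3 months the difference was 0.24 (SE 0.57, 95% interval -0.96 to 1.45, limma adjusted p = 0.879). The 28-month array was the higher in 2 of the 4 runs, and the difference turned to -0.15 when replicate 4 at 3 months was left out, or to -0.13 when replicate 2 at 28 months was.
The largest Edn1 difference from 3 months was at 6 months, -1.14 (SE 0.57, interval -2.34 to 0.06). It had an unadjusted p of 0.0614 and an adjusted p of 1 by limma, and Edn1 was lower at 6 months in 3 of 4 runs. In this comparison 0% of probe sets were called, with and without the filter (151 of 5250 and 273 of 8740 had an unadjusted p under 0.05).

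Edn3 encodes the precursor of endothelin-3, which binds the B receptor far better than the A receptor. It had a pair of probe sets, both below the filter. The brighter one, whose name marks probes shared by a family of sequences, gave 623.7, 87.3, 61.6 and 107.7 at 3 months and 59.8, 42.8, 181.2 and 286.8 at 6 months. At 15 months it gave 160.0, 345.3, 82.6 and 68.7. The 28-month arrays gave 317.1, 251.0, 130.1 and 93.0. Replicate 1 at 3 months stood highest of the 16 arrays, and the 4 ages overlapped throughout. The log2 difference at 28 against 3 months was 0.29 (SE 0.68, interval -1.16 to 1.74, limma adjusted p = 0.881), higher in 2 of 4 runs. Leaving out replicate 1 at 3 months gave 0.96, and leaving out replicate 3 of that age gave -0.0545.

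The dimmer Edn3 probe set was among the lowest of the array. It gave 48.8, 17.8, 24.2 and 27.1 at 3 months and 21.1, 15.5, 14.9 and 31.8 at 6 months. It gave 14.8, 7.64, 15.5 and 15.7 at 15 months, and 7.65, 16.1, 18.9 and 24.1 at 28 months. All 4 arrays at 15 months lay below all 4 at 3 months, the only member comparison of the 25 (5 probe sets, 5 pairs of ages) in which the groups did not overlap. Without the filter 2.73% of probe sets did not overlap between these ages. In the comparisons where 0 of the 5 members were apart, the share was 11.9% at 28 against 3 months, 1.75% at 6 against 3, 2.2% at 28 against 15 and 2.43% at 15 against 6.
The log2 difference of the dimmer Edn3 probe set at 15 against 3 months was -0.60 (SE 0.25, interval -1.14 to -0.06, unadjusted p = 0.0323, limma adjusted p = 0.775), and 6.14% of the 8740 probe sets had an unadjusted p under 0.05 there. At 28 against 3 months it was -0.46 (SE 0.25, limma adjusted p = 0.396), lower in 4 of 4 runs. At 15 against 3 months 0.0686% of the 8740 probe sets were called, and 0.0952% of the 5250 above the filter.

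The deposited table has no detection calls, so the signals were set beside those of 15 probe sets for Bacillus genes, which are array controls. These control signals ran from 3.53 to 186.3 with a median of 15.7. For the counts that follow, each array was compared with its own controls, not with these pooled values. The dimmer Edn3 probe set was above the control median of the same array on 10 of 16 arrays. It was above the highest control of the same array on 0. By the same count Edn1 was above the median on 14 arrays and above the highest control on 6, and the brighter Edn3 probe set on 16 and 8. Both Ece1 probe sets were above the highest control on all 16 arrays. Signals of different probe sets depend on their probes, so no order of level among the genes is given.

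**Figure D2:**
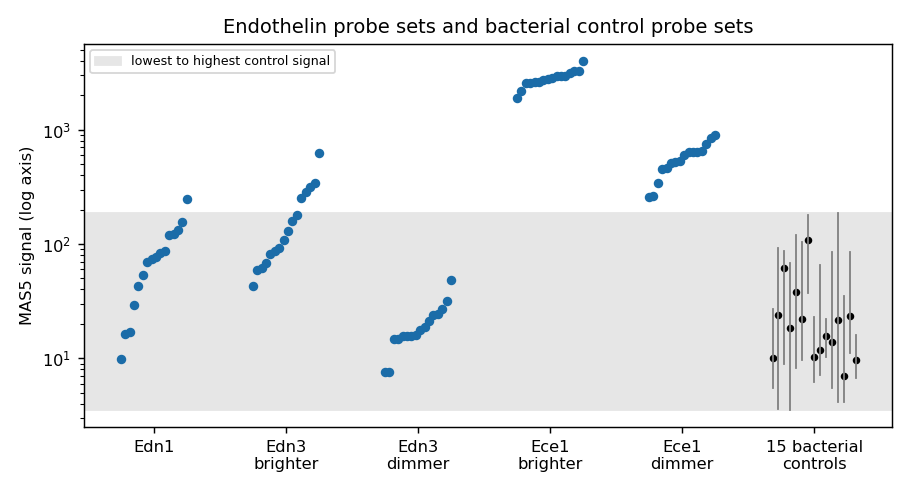
MAS5 signals (log axis) of the 5 endothelin probe sets on the 16 arrays, sorted within each probe set, beside the range (grey line) and median (black point) of each of 15 bacterial control probe sets. The shaded band runs from the lowest to the highest control signal, 3.53 to 186.3, and both Ece1 probe sets lie above it on every array.

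Ece1 encodes the enzyme that cuts big endothelin to the active peptide. Its brighter probe set gave signals of 2926, 2554, 2197 and 1880 on replicates 1 to 4 at 3 months. It gave 3283, 2576, 2630 and 2729 at 6 months and 2930, 3284, 2931 and 2628 at 15 months. At 28 months the signals were 3963, 2788, 3133 and 2811. The 2 lowest arrays of the 16 were at 3 months and the highest at 28 months, but the ages overlapped, since replicate 1 at 3 months was above replicates 2 and 4 at 28 months.

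The age means of this probe set were 11.21 ± 0.27, 11.45 ± 0.16, 11.53 ± 0.13 and 11.62 ± 0.24 on the log2 scale (SD, n = 4 each). Ece1 was 1.33 times as high at 28 as at 3 months on this probe set, a log2 difference of 0.41 (SE 0.18, interval 0.04 to 0.79). That difference had an unadjusted p of 0.0325, in a comparison where 22.4% of the 5250 probe sets were under 0.05, and did not pass after adjustment (limma adjusted p = 0.192, and 0.0763 with the runs as a block). Within runs the difference was 0.13 to 0.58, higher at 28 months in 4 of 4.
The differences from 3 months were 0.31 (SE 0.18, limma adjusted p = 0.703) at 15 months and 0.24 (SE 0.18, limma adjusted p = 1) at 6 months, each higher in 4 of 4 runs. These comparisons and that of 28 months share the 3-month arrays. Between 28 and 15 months the difference was 0.10, and between 15 and 6 months 0.07 (limma adjusted p = 0.973 and 0.901). In these comparisons 0% and 0.019% of the 5250 probe sets were called (185 and 393 had an unadjusted p under 0.05).

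As a slope over age, the brighter Ece1 probe set had 0.0135 log2 units per month (SE 0.0062, unadjusted p = 0.0442, limma adjusted p = 0.144), where 13.3% of probe sets were called and 32.1% had an unadjusted p under 0.05. The moderated F test over the 4 ages gave an adjusted p of 0.464 for it with limma, where 0.648% were called (5.92% with the runs as a block). Edn1 had a slope of 0.029 per month (limma adjusted p = 0.496) in the fit without the filter, where 4.05% were called. With the fat score in the model the difference of the brighter Ece1 probe set at 28 against 3 months was 0.55 (limma adjusted p = 0.278), and without the 2 arrays of high beta-actin ratio it was 0.47 (0.246). Within the hybridisation days it was 0.28 on day 1 and 0.54 on day 2.

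**Figure D3:**
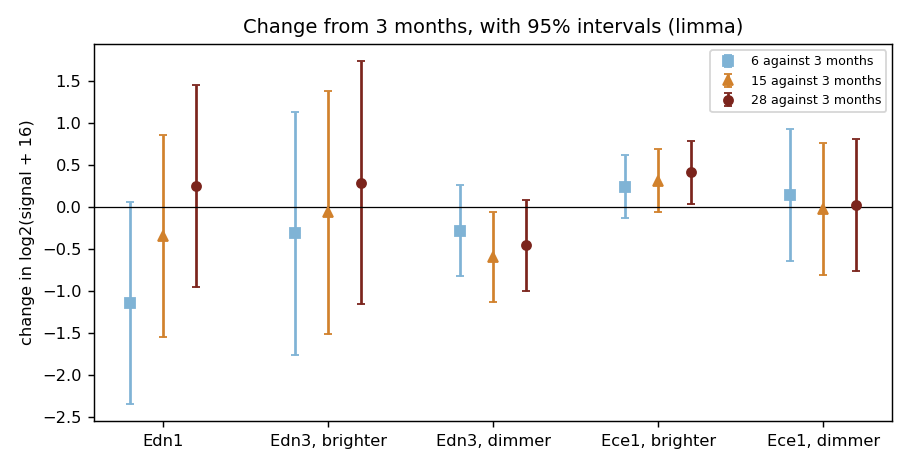
Difference from 3 months in log2(signal + 16) for the 5 endothelin probe sets at 6, 15 and 28 months, from limma, with bars for the 95% interval. The interval of the brighter Ece1 probe set at 28 months (0.04 to 0.79) and that of the dimmer Edn3 probe set at 15 months (-1.14 to -0.06) lie on 1 side of 0, and neither difference passed after adjustment.

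The dimmer Ece1 probe set, whose name marks probes shared by several transcripts, did not show the same order of ages. It gave 636, 640, 518 and 343 on replicates 1 to 4 at 3 months. It gave 604, 839, 456 and 467 at 6 months and 637, 754, 538 and 257 at 15 months. The 28-month arrays gave 651, 892, 511 and 261. The high and low arrays shared a replicate number: replicate 2 was the highest at each age, and replicate 4 was the lowest at 3, 15 and 28 months.
Run 1 ranged from 604 to 651, run 2 from 640 to 892, run 3 from 456 to 538 and run 4 from 257 to 467. At 28 against 3 months the log2 difference was 0.03 (SE 0.37, interval -0.76 to 0.81, limma adjusted p = 0.974). With the runs as a block the SE was 0.19 and the call was the same (limma adjusted p = 0.944). The difference between the 2 Ece1 probe sets was not tested.

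On the dimmer Ece1 probe set both arrays of high beta-actin ratio gave low signals, 257 and 261, below each of the other 14 (343 to 892). On the brighter one they gave 2628 and 2811, inside the range of the others. Without them the dimmer probe set was 0.35 higher at 28 than at 3 months (limma adjusted p = 0.504), and with the fat score in the model 0.68 (limma adjusted p = 0.543). The part of RNA quality in these values was not tested.

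**Figure D4:**
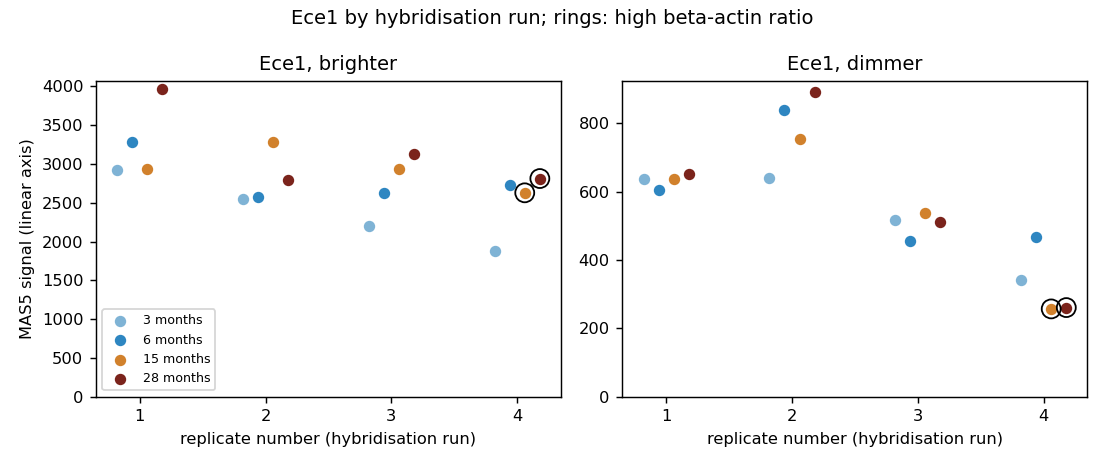
MAS5 signals of both Ece1 probe sets (linear axes from 0) by run, the name given here to arrays of 1 replicate number. Each run has 1 point per age, and rings mark both arrays of high beta-actin ratio. In the left panel the 3-month array is the lowest in each run, and in the right panel both ringed arrays, 257 and 261, are the lowest of the 16.

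Among 3152 other genes, those whose standardised log2 values lay nearest to the brighter Ece1 probe set over the 16 arrays were Ppt2, Litaf and Prkcz. Their mean absolute differences from it were 0.549, 0.578 and 0.591 SD, against a median of 1.11 SD over all genes. Ppt2 encodes a lysosomal thioesterase, Litaf a protein of late endosomes and Prkcz an atypical protein kinase C. At 28 against 3 months Ppt2 was 0.20 higher (SE 0.14, limma adjusted p = 0.404) and Litaf 0.17 (SE 0.17, limma adjusted p = 0.583). Prkcz was 0.95 higher (SE 0.39, limma adjusted p = 0.183), with signals of 210.3, 192.4, 116.1 and 56.3 at 3 months and 253.5, 229.1, 266.3 and 320.2 at 28 months.

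The other genes of the pathway were read from 4 lists with 73 genes on the array, of which 64 were tested. At 28 against 3 months 1 of the 64 was called (1.56%, against 1.28% of all probe sets), and 16 had an unadjusted p under 0.05 (25%, against 22.4%). With the runs as a block 4 of the 64 were called (6.25%), where 12.2% of all probe sets were. Over the slope per month 7 were called (10.9%, against 13.3%), and with the block 16 (25%, against 25.2%). These shares are near or below the background.

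The list of peptide processing and breakdown had 7 of its 9 measured genes tested, and 0 were called at 28 against 3 months (2 at an unadjusted p under 0.05, 28.6% against 22.4% of all probe sets). The values of 2 were above 0 and of 5 below it, with a median of -0.23, beside 0.06 over all probe sets tested. Mme encodes neprilysin, a membrane protease that breaks down endothelins and other peptides. Its signals were 781, 496, 667 and 303 at 3 months and 219, 185, 226 and 118 at 28 months, all 4 lower. Between these ages 11.9% of the 8740 probe sets did not overlap. The Mme difference was -1.47 (SE 0.51, limma adjusted p = 0.146, and 0.018 with the runs as a block), and its slope was -0.0682 per month (limma adjusted p = 0.0291).
The slope call was lost without replicate 1 or 3 at 3 months, 1 at 6 months, or 1, 2 or 4 at 28 months (limma adjusted p between 0.0507 and 0.0859). Another Mme probe set differed by -1.56 (limma adjusted p = 0.241), and its slope was not called (limma adjusted p = 0.0649). Pcsk5, a proprotein convertase, had 183, 358, 231 and 431 at 3 months and 602, 581, 589 and 858 at 28 months. The Pcsk5 difference was 1.14 (SE 0.44, limma adjusted p = 0.163, and 0.0426 with the runs as a block). Its slope of 0.0488 per month was called (limma adjusted p = 0.0445). Leaving out 1 array lost that call for 10 of the 16 arrays (limma adjusted p between 0.0526 and 0.124). A further Pcsk5 probe set went the other way at 28 against 3 months, by -0.52 (limma adjusted p = 0.385). Edn2, the remaining ligand gene, was below the filter, with signals from 21.4 to 202 (median 50.9).

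Of 33 measured genes of receptor signalling and contraction, 27 were tested and 0 called (8 at an unadjusted p under 0.05, 29.6% against 22.4%). Their values were above 0 in 22 and below in 5, with a median of 0.32. Gnai2, an inhibitory G protein subunit, had signals of 6045, 5224, 4992 and 6774 at 3 months and 9937, 9360, 8715 and 14253 at 28 months. All 4 arrays at 28 months were higher, in a comparison where 11.9% of the 8740 probe sets did not overlap. Gnai2 differed by 0.86 (SE 0.21, limma adjusted p = 0.0623, and 0.012 with the runs as a block). Its slope of 0.0384 per month was called (limma adjusted p = 0.00919), also without any 1 of the 16 arrays. The other 2 Gnai2 probe sets differed by 0.54 and 0.40 at 28 against 3 months, and neither was called there or over the slope (limma adjusted p = 0.0829 and 0.0611). Rgs4, which ends signals of G proteins, had 58.0 to 271.7 at 3 months and 241.9 to 552.7 at 28 months, a difference of 1.08 (SE 0.41, limma adjusted p = 0.162).

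The relaxation arm downstream of the B receptor had 9 of 10 measured genes tested and 0 called (1 at an unadjusted p under 0.05, 11.1% against 22.4%). The values of 7 were above 0 and of 2 below, with a median of 0.36. Ptgis, which makes prostacyclin, had signals of 3962 to 9328 at 3 months and 10099 to 13639 at 28 months. Its difference was 0.86 (SE 0.36, limma adjusted p = 0.183) and its slope 0.0401 per month (limma adjusted p = 0.0451). The slope call was lost without replicate 1 or 3 at 3 months, 1, 2 or 3 at 6 months, or any 1 array at 28 months (limma adjusted p between 0.0654 and 0.0995). Ptgs1, a cyclooxygenase, differed by 0.87 (SE 0.46, limma adjusted p = 0.275).

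All 21 measured genes of the Edn1 transcription list were tested. At 28 against 3 months 1 was called (4.76%, against 1.28% of all probe sets), and 5 had an unadjusted p under 0.05 (23.8%, against 22.4%). Their values were above 0 in 14 and below in 7, with a median of 0.19. The called gene was Tgfb1, a growth factor known to raise Edn1 transcription. Its signals were 547, 839, 530 and 762 at 3 months and 1281, 1663, 1321 and 1271 at 28 months, with no overlap. Without the filter 11.9% of the 8740 probe sets did not overlap between these ages. Tgfb1 rose by 1.05 (SE 0.22, limma adjusted p = 0.0298), a change already known from these arrays when the list was made. This call was lost without replicate 1 or 3 at 3 months or without any 1 array at 28 months (limma adjusted p between 0.0583 and 0.123). The Tgfb1 slope of 0.0469 per month was called (limma adjusted p = 0.00389), also without any 1 of the 16 arrays. It was not called within day 2 or with the fat or smooth muscle score.
Junb, a subunit of AP-1, gave 490, 560, 1615 and 606 at 3 months and 2058, 2141, 1575 and 1512 at 28 months. Its difference was 1.30 (SE 0.42, limma adjusted p = 0.117), and its slope of 0.0541 per month was called (limma adjusted p = 0.0278). That call was lost without replicate 1 at 3 months or 1, 2 or 4 at 28 months (limma adjusted p between 0.0559 and 0.0663). Another Junb probe set differed by 0.52 at 28 against 3 months and had a slope of 0.0245, neither called (limma adjusted p = 0.285 and 0.105). Pparg, a nuclear receptor of fat cells, gave 908 to 2341 at 3 months and 266 to 928 at 28 months, a difference of -1.33 (SE 0.55, limma adjusted p = 0.183) with a called slope of -0.0654 (limma adjusted p = 0.0433). The Pparg slope was not called without replicate 1, 2 or 3 at 3 months, 1, 2 or 3 at 6 months, or 1, 2 or 4 at 28 months (limma adjusted p between 0.0571 and 0.133).

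The fat score differed between the same ages. With that score in the model 0 of the 64 genes were called at 28 against 3 months or over the slope, and the difference of Tgfb1 was 0.76 (limma adjusted p = 0.184), of Mme -0.22 and of Pparg 0.01. Pparg is itself among the genes of the fat score, so its value with that score is partly set by its own signal. With the smooth muscle score, 12.84 to 14.06 at 3 months and 13.90 to 14.21 at 28 months, 0 were called in either test as well. The part of the makeup of the pieces in these differences was not tested. At 15 against 3 months and at 6 against 3 months 0 of the 64 genes were called (3 and 0 at an unadjusted p under 0.05, where 7.09% and 2.88% of all probe sets were).

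**Figure D5:**
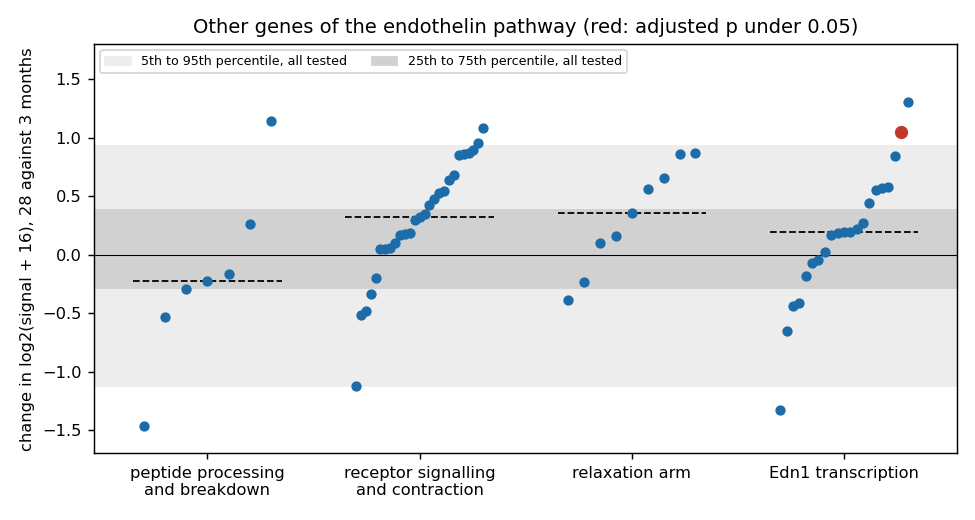
Difference in log2(signal + 16) at 28 against 3 months for each tested gene of the 4 pathway lists, sorted within a list, with a dashed line at the list's median and the called gene in red. The shaded bands show the range of all 5250 probe sets tested, -0.29 to 0.38 from the 25th to the 75th percentile and -1.12 to 0.92 from the 5th to the 95th.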

How the data were processed

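Per the labels' protocols, 5 ug of total RNA went into each cRNA. The authors deposited 1 intensity per probe set and array, a MAS5 signal per the submitters' processing notes; no version or scaling step is stated. The deposited mean after trimming 2% at each end was 1001.7 to 1002.0 on every array, so nothing was rescaled. The deposited array records, of unit "other", gave rats (16), runs, days and chip lots, and a note on 10 ug of cRNA for 4 arrays. Only arrays of rats aged 15 or 28 months carried this note, among them both arrays of high beta-actin ratio. The note was thus partly tied to age and to that ratio.

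Here log2(signal + 16) was fitted over all 16 arrays with limma 3.58.1 in R 4.3.3 (lmFit, eBayes with a trend), 1 mean per age, or a slope in months. On simulated data at 28 against 3 months, 44% of probe sets with a log2 change of 1 and 87% with 2 were called, among 5250. The simulation changed few probe sets and used independent noise with no run effect, so these shares need not hold for the real arrays. The number of arrays limits the precision. Of the probe sets, 59 were controls, 7006 had 1 symbol, 308 several and 1426 none, and 6985 of those with 1 symbol matched the RefSeq gene table (GRCr8), with 0 symbols updated.

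Runs 1 and 2 shared a day but differed in station and chip lot. Runs 3 and 4 shared the other day and a chip lot but differed in station. Day and station together thus set the replicate numbers apart. Deviations from the age means had a median correlation of 0.171 over 24 pairs of the same number and -0.034 over 72 pairs of other numbers and ages.

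Named genes were all member probe sets and the 3 genes nearest the brighter Ece1 probe set. From each list came up to 4 genes called between the oldest and youngest ages, or else the 2 with the smallest p there. Junb and Pparg were named because their slopes were called, so those slope calls were part of the choice. The same genes were named again wherever a slope is given. For a gene with several probe sets the brightest stood for it in a list. The members and lists were chosen with earlier results of these data known.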

Additional observations from a re-analysis of the deposited data

Results flagged for a closer look

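In 1 of 20 groups (5 endothelin probe sets at 4 ages), a single array stood far from the other 3. This was the dimmer Edn3 probe set at 15 months, where replicate 2 had a signal of 7.64 and the others 14.8 to 15.7, and the gap was 0.902 of the group's range, above Dixon's 95% critical value for 4 samples. Chance gives such a gap in about 1 of 20 groups.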

How the results depend on the processing

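Of 556 differences and slopes of the endothelin probe sets recomputed under other settings, 503 kept their sign and 53 changed it, 40 of these on the dimmer Ece1 probe set, 9 on the brighter Edn3, 3 on Edn1 and 1 on the brighter Ece1. A test is counted for the 406 of Ece1, of which 0 were called, and the 150 of Edn1 and Edn3 are read as values alone. With 64 in place of 16 added to the signal, the brighter Edn3 probe set passed the filter and was not called. The 23 sign changes that do not come from leaving out 1 array were those of the dimmer Ece1 probe set. Within day 2 it gave -0.20 at 28 against 3 months and -0.026 at 28 against 15, and within day 1 it gave 0.12 at 15 against 3 months and a slope of 0.0077. With the fat score it gave 0.44 at 15 against 3 months, 0.35 at 15 against 6 and 0.0267 per month. With the endothelial score it gave 0.11, -0.059, -0.077 and 0.17 at 15 against 3, 6 against 3, 28 against 15 and 15 against 6 months, and 0.0026 per month. Without the 2 arrays of high beta-actin ratio it gave 0.29 at 15 against 3 months, 0.15 at 15 against 6 and 0.0133 per month. For 15 against 3 months, 15 against 6 and the slope, terms chosen after seeing the data gave 0.33, 0.19 and 0.0135 (cRNA note) and 0.16, 0.090 and 0.0129 (smooth muscle score), and the beta-actin ratio gave 0.15 at 15 against 3 months and 0.0079 per month. Leaving out 1 array gave, for the dimmer Ece1 probe set, -0.22 to 0.35 at 28 against 3 months, -0.22 to 0.29 at 15 against 3, -0.053 to 0.25 at 6 against 3, -0.26 to 0.38 at 28 against 15, -0.35 to 0.15 at 15 against 6 and -0.0111 to 0.0104 per month. For the brighter it gave -0.013 to 0.15 at 28 against 15 months. It gave -0.15 to 0.51 at 28 against 3 months and -0.74 to 0.099 at 15 against 3 for Edn1. For the brighter Edn3 probe set it gave -0.0545 to 0.96 at 28 against 3 months, -0.48 to 0.61 at 15 against 3, -0.73 to 0.36 at 6 against 3 and -0.17 to 0.66 at 15 against 6. With the fat score Ptgs1 gave -0.015 at 28 against 3 months and -0.0018 per month, and Pparg, itself a gene of that score, 0.014 at 28 against 3 months. The pathway genes called at 28 against 3 months, 1 as reported, were 4 with the replicate block, 3 with the day or the chip lot as a term, 8 within day 1, 2 with the endothelial score, 6 with the 8 arrays of the ages compared, and 0 within day 2, with the fat score, the smooth muscle score or the cRNA note, or without the 2 arrays of high beta-actin ratio. Leaving out 1 array gave 0 to 2. Over the slope, 7 as reported, they were 16 with the replicate block or the day, 14 with the chip lot, 4 without the filter or with the beta-actin ratio, 2 without the 2 arrays, 1 with the cRNA note, 0 within day 2 or with the fat or smooth muscle score, and 2 to 11 with 1 array left out. The cause of these changes was not tested, and the cRNA note was carried only by arrays of the older ages, 15 or 28 months. The replicate block changed no call of the endothelin probe sets. The difference between Ednrb and Ednra and its alternatives were not run. For Edn1 and Edn3, signals in the range of the control probe sets limit what can be seen.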
